A study of Mus musculus with 3 samples.

Results

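The genes described here are 8 genes of intestinal-type epithelium, Myo1a, Vsig2, Lypd8, Phgr1, Spink4, Clca1, Tspan8 and Cdh17, read in single cells of mouse pancreatic tumours. They were taken by symbol and are 8 of the 31053 genes listed in each count table. Every member had UMIs (unique molecular identifiers, each standing for 1 captured RNA molecule) in the kept cells of all 3 tumours. The sum ran from 55 UMIs for Cdh17 to 4355 for Tspan8.

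The series holds 1 library from each of 3 tumours, all of 1 group. Donor mice carried the Msi2-Myc transgene, given in full as Musashi2-CreER with MycT58A, and the R26-LSL-tdTomato reporter. Tamoxifen was given, and tdTomato+ epithelial cells were sorted 5 weeks later, placed into the pancreas of NSG hosts, and recovered as end-stage tumours by an EpCAM sort. All tumours thus share the transgene, the tamoxifen and the immunodeficient host, and untreated or tumour-free pancreas was not analysed here. Recombination was driven from Musashi2, a gene of stem and progenitor cells. The tumours are titled as ASCP, PDAC and ACC, but no label ties a subtype to a library or gives the number of donors. The p-values below therefore speak only for these 3 libraries. Except where no tumour block is stated, cell groups were compared within tumours. Those p-values rest on how the group differences varied among tumours, not on the spread of levels between libraries. The estimate of that variation is shared across genes. With 1 to 3 residual degrees of freedom, small p-values lean on this shared estimate more than on a gene's own agreement between tumours. In some comparisons only 2 tumours had sums of both groups.

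Intestinal epithelium is built of absorptive enterocytes, whose apical surface is a brush border of packed microvilli, and of goblet cells, which secrete mucus. Mucinous precursor lesions of the pancreas and some pancreatic cancers take up intestinal or gastric epithelial genes. Tff1 is a trefoil peptide secreted with mucus in the stomach, and Lgals4 is a galectin of digestive epithelium that binds sugars on apical glycoproteins.

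The starts of the Phgr1 and Lypd8 genes are shown because both genes were higher in ductal cells of every tumour and their RefSeq start lies close to the annotated gene start. The RefSeq promoter table, build GRCm38.p6, held 5 windows for 4 of the 8 members (Myo1a, Lypd8, Phgr1 and Tspan8). The 250 bases before the RefSeq start are given 5′ to 3′ for chr2:118772524-118772773 (Phgr1, plus strand) and chr11:58378782-58379031 (Lypd8, plus strand). Capitals mark the match to the HNF4 motif CAAAGNNCA in its reverse orientation.
Phgr1: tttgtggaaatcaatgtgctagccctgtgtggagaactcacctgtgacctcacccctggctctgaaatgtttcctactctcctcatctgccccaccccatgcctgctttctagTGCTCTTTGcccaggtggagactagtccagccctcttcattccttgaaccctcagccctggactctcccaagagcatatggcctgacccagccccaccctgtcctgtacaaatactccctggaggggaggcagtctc
Lypd8: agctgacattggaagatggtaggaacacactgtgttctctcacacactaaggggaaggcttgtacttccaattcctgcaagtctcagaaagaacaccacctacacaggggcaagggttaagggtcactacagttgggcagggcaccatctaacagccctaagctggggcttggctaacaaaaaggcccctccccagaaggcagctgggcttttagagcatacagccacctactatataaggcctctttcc
HNF4 factors are nuclear receptors that drive gene expression in gut epithelium. The match TGCTCTTTG lay 137 bases before the Phgr1 start, and 5.49% of 32851 windows of the same length held that motif on either strand. None of the 5 member windows held the CDX motif CATAAA, which 10.8% of all windows held. None held the exact TATA box letters TATAAA, which 12.4% of all windows held. Other spellings of the TATA box were not searched, and the Lypd8 window shown holds tatataag near its end. The GATA motif AGATAA was in 1 member window, at another Lypd8 start inside the gene, and in 9.99% of all windows. These are matches of letters only, searched on both strands.

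The intestinal label was borne out only in part by the defining genes of the gut. Cdx2, the master transcription factor of intestinal identity, had 1, 0 and 1 UMIs in all kept cells of tumours 1, 2 and 3. The goblet mucin Muc2 had 0, 0 and 2 UMIs. Atoh1, which specifies secretory cells, and the brush border disaccharidase Sis had none in any tumour. A count of 0 allows up to 0.950, 5.49 and 0.395 UMIs per 1000000 UMIs (CPM) over the kept cells of the 3 tumours. Other gut genes were present: the microvillus bundler Vil1 had 130, 22 and 293 UMIs and the transcription factor Hnf4a had 91, 12 and 129. The members are therefore called by their names and not taken as a sign of intestinal cells.

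The 3 libraries held 9737397 to 16521484 UMIs, and 1431, 253 and 2804 cells were kept, with a median of 1333 to 1621 UMIs each. A filter on barcodes that recur in several libraries removed 50.5% of the otherwise acceptable barcodes of tumour 2, against 7.86% and 0.989% in tumours 1 and 3, and left no barcode shared between libraries. Cells were grouped by summed marker UMIs, 3 or more and at least 2 times each other score. The acinar gate used Ctrb1 and Clps, the ductal gate Tff1 and Lgals4, and the Msln gate Msln, Tm4sf1 and F3. The ductal gate held 503, 109 and 298 cells, the acinar gate 486, 58 and 2149, and the Msln gate 26, 3 and 36, so that tumour 2 gave no usable Msln sum. All 10 ductal marker genes were higher and all 13 acinar marker genes tested were lower in the ductal than in the acinar gate. Fibroblast, endothelial, myeloid and erythroid lists summed to at most 15.6 CPM in the ductal gate. The ductal list summed to 13727 and 13893 CPM in the Msln gate of tumours 1 and 3. In their ductal gate it summed to 9980 and 10962 CPM, so it did not set that gate apart from the Msln gate.

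Together, the 8 members reached 2124, 2664 and 3419 CPM in the ductal gate of tumours 1, 2 and 3 (mean 2736 ± 650, SD, n = 3). In the acinar gate of the same tumours they reached 382, 294 and 431 CPM (369 ± 69.6). All 3 ductal values lay above all acinar values, and the ratio within a tumour averaged 7.51 ± 1.79. Ungated cells gave 984, 1072 and 1554 CPM, and the Msln gate 626 and 1197 CPM in tumours 1 and 3, so these groups overlapped. Barcodes with 10 to 100 UMIs, which hold free RNA rather than cells, gave 544, 473 and 491 CPM. The acinar gate thus lay below free RNA in each tumour. The ductal gate held 57.4% of the members' 12950 UMIs in kept cells, against 75.7% for Tff1 and 62.2% for Lgals4, both of which define that gate.

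**Figure D1:**
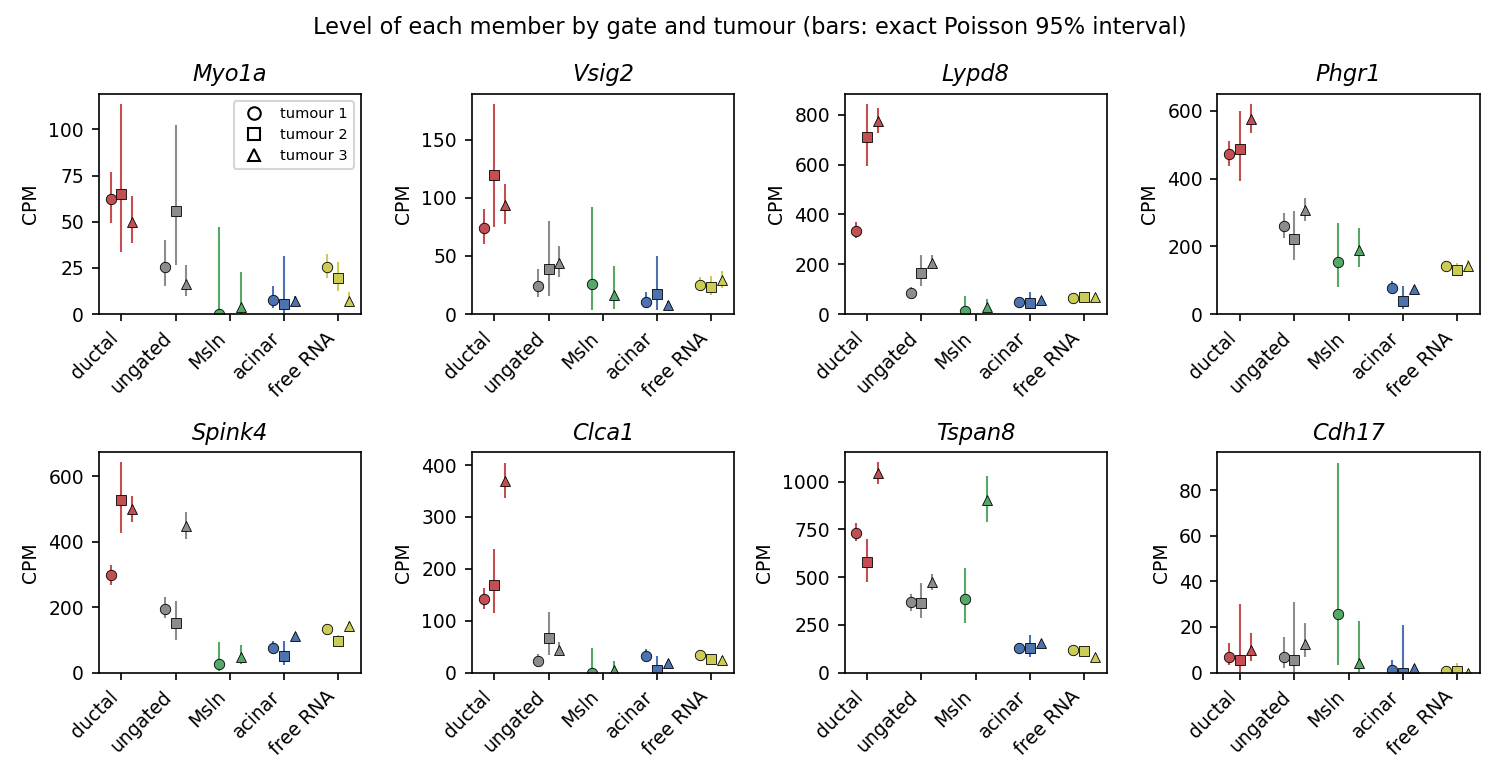
Level of each of the 8 members in CPM (linear axis) by cell group, 1 point per tumour with its exact Poisson 95% interval; the Msln gate of tumour 2, with 3 cells, is not drawn. Ductal points stand above acinar points in every tumour for all 8 genes, with overlapping intervals for Cdh17 in tumours 1 and 2, and Tspan8 also stands high in the Msln gate.

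Among the brush border and surface genes, Myo1a (ENSMUSG00000025401, chr10:127705170-127720940, mm10) encodes the myosin that ties the microvillus core to its membrane. Its ductal level was 62.1, 65.1 and 50.0 CPM, and its acinar level was 7.74, 5.66 and 7.08 CPM. The ductal values differed little between tumours, and no acinar value came near them. Cdh17 (ENSMUSG00000028217, chr4:11758147-11817895), the liver-intestine cadherin of gut epithelium, was the least read member, with 9, 1 and 12 UMIs in the ductal gate and 1, 0 and 9 in the acinar gate. Summed over tumours, its ductal-to-acinar ratio was 5.11 (exact 95% interval 2.32 to 12.1, counting error only), and it did not pass the low-count filter for testing. Vsig2 (ENSMUSG00000001943, chr9:37539255-37544205), a membrane protein of the immunoglobulin superfamily, stood at 74.4, 119 and 93.4 CPM in the ductal gate and at 10.6, 17.0 and 8.06 CPM in the acinar gate.

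Tspan8 (ENSMUSG00000034127, chr10:115816832-115849893), a tetraspanin of epithelial membranes, was read at 734, 581 and 1045 CPM in ductal cells and at 130, 130 and 153 CPM in acinar cells. It was the only one of the 8 members whose acinar level exceeded free RNA (120, 111 and 79.6 CPM) in all 3 tumours. The annotated antisense gene 4930422I22Rik overlaps it on the other strand, and whether strand was used in counting was not stated, so reads of both could not be told apart.

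Of the secreted and membrane-anchored genes of the gut lining, Lypd8 (ENSMUSG00000013643, chr11:58379043-58390728) encodes a membrane-anchored protein that keeps flagellated bacteria away from the colon surface. It was read at 335, 711 and 775 CPM in the ductal gate, so that tumour 1 lay well below the other tumours, and at 47.4, 45.2 and 57.0 CPM in the acinar gate. Clca1 (ENSMUSG00000028255, chr3:145003817-145032776, minus strand), a goblet cell protein that is secreted into mucus, was read at 142, 168 and 369 CPM in ductal and 31.9, 5.66 and 18.5 CPM in acinar cells. Tumour 3 stood highest, and 1 of its ductal cells alone held 92 of the 451 Clca1 UMIs there (20.4%), without which the level was 295 CPM. Clca1 also had the largest share of its UMIs inside the ductal gate, 76.8%, of the 8 members.

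Spink4 (ENSMUSG00000028415, chr4:40920052-40931395), a goblet cell peptide with a Kazal-type protease inhibitor domain, was read at 297, 526 and 500 CPM in the ductal gate and at 76.4, 50.9 and 112 CPM in the acinar gate. It was the abundant member least bound to the ductal gate, with 45.6% of its UMIs there. In tumour 3 the ungated cells held it at 449 CPM, beside 500 CPM in the ductal cells. The richest of these ungated cells alone held 141 of their 463 Spink4 UMIs, so that level leaned on that cell. Phgr1 (ENSMUSG00000046804, chr2:118772769-118778165), which encodes a small proline-, histidine- and glycine-rich protein of gut epithelium, was the steadiest of the members above 100 CPM, at 473, 488 and 576 CPM in the ductal gate. Its acinar level was 77.4, 39.6 and 74.1 CPM.

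The first comparison asked which genes differed between ductal-gate and acinar-gate cells of the same tumour. Of the 7778 genes tested, 1398 were higher in the ductal gate (18.0%) and 1293 were lower (16.6%). All 7 members that passed the low-count filter were higher, each in 3 of 3 tumours, with a median log2 difference of 2.76 against 0.01 over all genes tested. The members were put together with earlier results of these cells known, so their direction here is no independent evidence. Clca1 differed most (log2 difference 3.46 ± 0.25, SE), followed by Lypd8 (3.35 ± 0.19) and Vsig2 (3.11 ± 0.25). Phgr1 (2.76 ± 0.18), Myo1a (2.74 ± 0.29) and Tspan8 (2.46 ± 0.18) lay lower, and Spink4 differed least (2.11 ± 0.18). The adjusted p-values of these 7 genes ran from 8.55e-21 for Lypd8 to 3.23e-11 for Myo1a (edgeR quasi-likelihood test, Benjamini-Hochberg adjustment over all genes, tumour as a block).

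**Figure D2:**
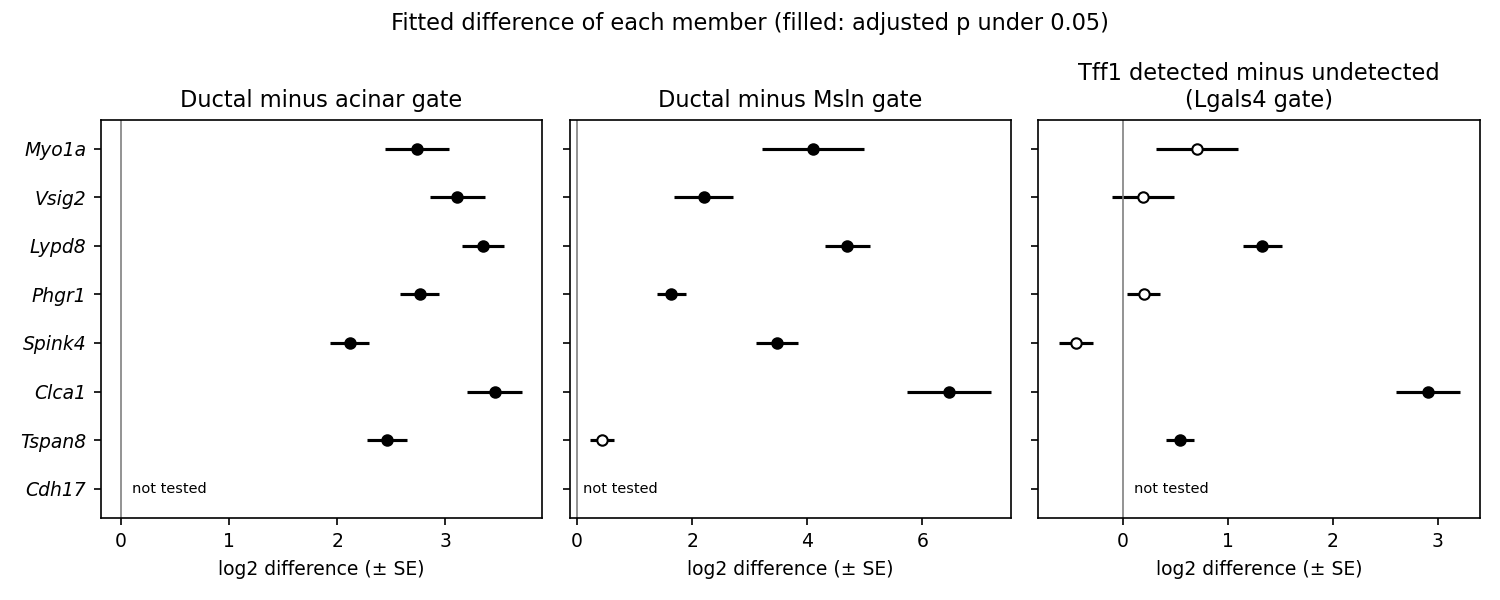
Fitted log2 difference of each member with its standard error in 3 comparisons, filled where the adjusted p is under 0.05 and open where it is not; Cdh17 was not tested. All 7 tested members lie to the right of 0 against the acinar gate, 6 are filled against the Msln gate, and 3 are filled in the split by Tff1.

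Per cell, the members were read sparsely and in different combinations. Each cell was thinned to 1000 UMIs, so that depth was equal. At least 1 member was then seen in 82.9%, 90.8% and 92.3% of ductal-gate cells and in 27.6%, 25.9% and 37.2% of acinar-gate cells (without thinning 90.5%, 95.4% and 99.0% against 39.5%, 37.9% and 52.1%, at median depths of 1310 to 2302.5 and 1328 to 1630.5 UMIs). The acinar shares are given for comparison and need not be free RNA alone, since Tspan8 exceeded free RNA in these cells. Cells with 3 or more different members made up 19.7%, 29.4% and 31.2% of the ductal gate and 1.44%, 1.72% and 1.07% of the acinar gate.

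Phgr1 and Tspan8 were found most often, in 42.7%, 44.0% and 46.6% and in 40.8%, 45.9% and 49.3% of thinned ductal cells. Clca1 was in 13.1%, 11.0% and 19.5% of them, against 1.65%, 1.72% and 2.61% of acinar cells. Leaving out Cdh17, which is too sparse, the 21 pairs of members were seen together 0.915 to 1.40 times as often as the product of their own shares gives. Over the 3 tumours, Lypd8 and Clca1 were together in 58 thinned ductal cells where the product gives 42.7, Myo1a and Lypd8 in 23 where it gives 16.4, and Phgr1 and Tspan8 in 163 where it gives 178. These counts are descriptions of sparse data and were not tested.

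The second comparison set the ductal gate against the Msln gate, in which F3 (1622 and 1759 CPM in tumours 1 and 3) was read above Msln (498 and 643 CPM) and Tm4sf1 (613 and 542 CPM). Of 7778 genes, 219 were higher in the ductal gate (2.82%) and 353 were lower (4.54%). Of the 7 members tested, 6 were higher in both tumours that could be compared, and Tspan8 did not pass. Spink4 had 2 and 12 UMIs in the Msln gate of tumours 1 and 3 (log2 difference 3.47 ± 0.36, adjusted p = 1.01e-10 by the same edgeR test). Lypd8 had 1 and 7 UMIs there (4.70 ± 0.39, adjusted p = 4.87e-14), and Phgr1 had 12 and 47 (1.64 ± 0.25, adjusted p = 2.60e-06). These 3 genes stayed within the threshold in all alternatives run.

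Clca1 had 0 and 1 UMIs in the Msln gate, so its fitted difference (6.46 ± 0.73, adjusted p = 9.80e-10, edgeR) depends on the fit's prior count. Its ratio over the UMIs of both tumours was 82.0, with an exact 95% interval of 14.7 to 3244. Myo1a, also with 0 and 1 UMIs, had a ratio of 18.3 (3.23 to 728). Its call (adjusted p = 0.000913, edgeR) was lost with DESeq2 (0.0641), without tumour 1 (0.0655) and without tumour 3 (0.179). Vsig2 had 2 and 4 UMIs (log2 difference 2.20 ± 0.52, adjusted p = 0.00240, edgeR), and its call was lost with DESeq2 (0.0729) and without tumour 3 (0.561).

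Tspan8 stood at 383 and 902 CPM in the Msln gate, beside 734 and 1045 CPM in the ductal gate of the same tumours. It was seen in 10 of 26 and 13 of 36 Msln-gate cells thinned to 1000 UMIs, and in 13 and 20 of them without thinning. The richest of these cells held 11 of the 30 Tspan8 UMIs in tumour 1 and 61 of the 223 in tumour 3. The log2 difference of Tspan8 was 0.43 ± 0.22 (adjusted p = 0.264, edgeR), which does not show that the levels are alike. The tetraspanin was thus read in both of these cell groups, while Lypd8, Clca1 and Spink4 had few UMIs in the Msln gate. The Msln gate also held squamous markers, at 1251 and 3312 CPM for the list of 6, and all 5 tested were lower in the ductal gate. The part of these cells in the members' differences was not tested. With cells thinned to 1000 UMIs the counts were 82 higher and 74 lower, and the median over all genes was 0.20 against 0.06.

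The third comparison asked whether the members are read in the same cells as Tff1, with cells chosen without Tff1 and then split by it. Chosen cells had 2 or more Lgals4 UMIs, at least 2 times as many as UMIs of the acinar gate genes and of the Msln gate genes. A Tff1 UMI was present in 280, 48 and 177 of these cells and absent from 73, 13 and 91. The 13 cells of tumour 2 gave no sum. Lgals4 itself stood at 1439, 1701 and 1633 CPM with Tff1 and 1389, 1401 and 1366 CPM without. Median depth was 1868, 1285.5 and 2433 UMIs with Tff1 and 1657, 1239 and 2206 without. Of 4453 genes tested, 40 were higher with Tff1 (0.898%) and 44 lower (0.988%), and 3 of the 7 tested members were among the higher ones. Of 13 mitochondrial genes tested, 9 were also higher (log2 difference 0.26 for mt-Atp6 to 0.63 for mt-Nd5). Mitochondrial UMIs made up 6.27%, 6.42% and 9.40% of all UMIs with Tff1 and 4.70%, 7.25% and 7.53% without, and their part in the members' differences was not tested.

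Clca1 stood at 175, 181 and 352 CPM in Lgals4 cells with Tff1 and at 18.5, 35.0 and 48.3 CPM in those without. The lowest value with Tff1 exceeded the highest without it, and the log2 difference was 2.91 ± 0.30 (adjusted p = 1.37e-17, edgeR quasi-likelihood test, 1 residual degree of freedom). Lypd8 stood at 353, 965 and 802 CPM with Tff1 and at 80.2, 70.1 and 376 CPM without, a log2 difference of 1.33 ± 0.18 (adjusted p = 5.71e-10, edgeR). The levels overlapped across tumours but were higher with Tff1 inside each. Without the tumour block neither call was made (adjusted p = 0.0545 for Clca1 and 0.99985 for Lypd8, edgeR). The 2 sets of cells differed in other genes too, named after their values were seen. The 6 squamous markers summed to 3.59, 72.4 and 19.3 CPM with Tff1 and to 30.9, 0 and 355 CPM without, and 72 of the 73 UMIs of the basal keratin Krt5 in cells without Tff1 came from tumour 3. The secreted phosphoprotein Spp1 stood at 136, 96.5 and 477 CPM with Tff1 and at 160, 455 and 1159 CPM without. The part of these differences in those of the members was not tested.

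Tspan8 stood at 788, 627 and 1117 CPM with Tff1 and at 488, 560 and 800 CPM without (log2 difference 0.54 ± 0.13, adjusted p = 0.00488, edgeR). That call was lost in 7 alternatives, among them leaving out tumour 2 (0.0526), and with cells thinned the difference was -0.07 (adjusted p = 0.994). For the other members no difference was shown. Phgr1 gave 463, 482 and 619 CPM with Tff1 and 426, 175 and 504 CPM without (0.20 ± 0.16, adjusted p = 0.757, edgeR). Spink4 gave 276, 832 and 480 CPM with Tff1 and 321, 315 and 704 CPM without (-0.45 ± 0.17, adjusted p = 0.175, edgeR). The Spink4 level beside Tff1 was lower in tumours 1 and 3 and higher in tumour 2. In tumour 1 the Poisson intervals overlapped (242 to 314 CPM with Tff1 and 240 to 421 CPM without). The level without Tff1 in tumour 2 rests on 9 Spink4 UMIs. Myo1a (0.71 ± 0.39, adjusted p = 0.529) and Vsig2 (0.19 ± 0.29, adjusted p = 0.897) had few UMIs and wide errors in the same edgeR test.

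**Figure D3:**
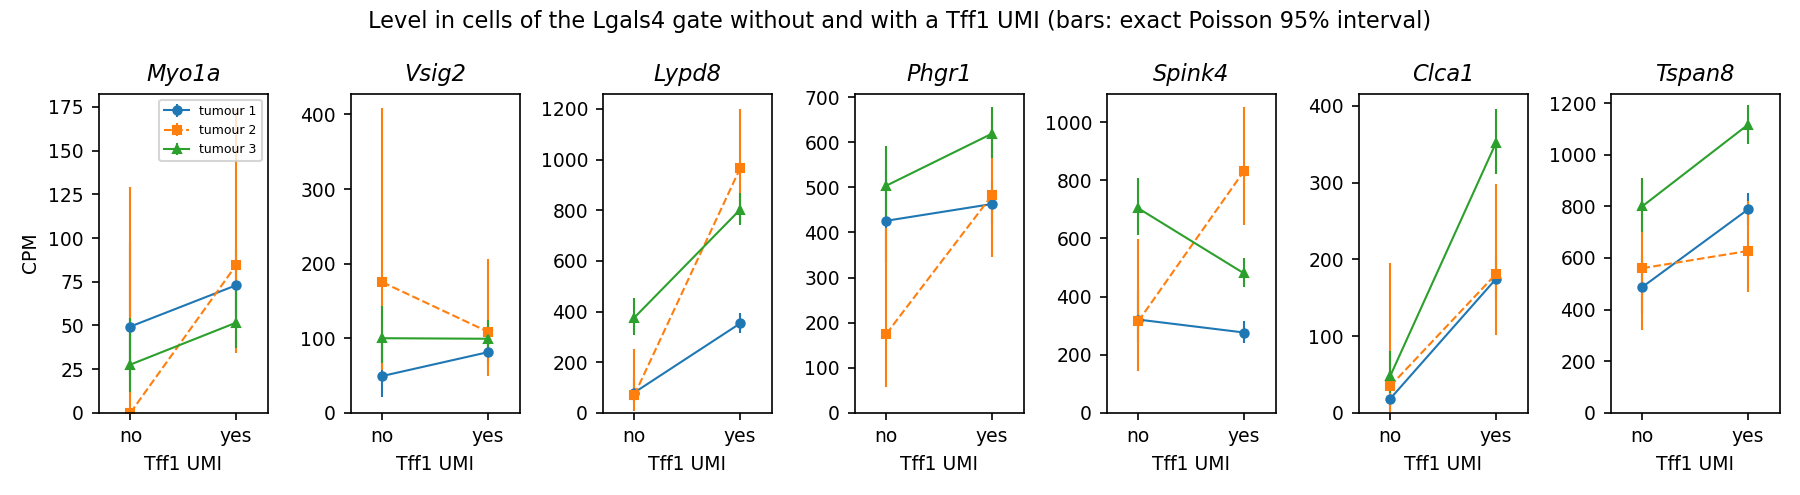
Level in CPM of 7 members in cells of the Lgals4 gate without and with a Tff1 UMI, 1 line per tumour with exact Poisson 95% intervals; the dashed line is tumour 2, whose cells without Tff1 number 13 and was not tested. Clca1 and Lypd8 are higher with Tff1 in all 3 tumours, and Spink4 is lower with it in tumours 1 and 3. Intervals overlap for Spink4 in tumour 1 and for Clca1 in tumour 2.

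Over all kept cells thinned to 1000 UMIs, Tff1 was detected in 54.9%, 59.7% and 44.5% of cells. That includes 28.6%, 20.7% and 43.0% of acinar-gate cells, and free RNA held Tff1 at 1345, 1058 and 996 CPM. Of cells with any member, 65.5% ± 11.3 (SD, n = 3) also had Tff1, and of cells with the acinar gene Ctrb1 48.1% ± 3.73 did. By gene, the share with Tff1 was 84.8% ± 7.35 for Clca1 and 79.5% ± 13.9 for Lypd8, and it was between 62.0% (Tspan8) and 69.8% (Myo1a) for 5 other members. Lgals4, at 67.9% ± 8.23, lay inside that range. Of cells with Cdh17, 8 of 12, 1 of 1 and 4 of 4 had Tff1 in tumours 1, 2 and 3, too few to rank. Conversely, 70.0% ± 15.5 of Tff1-positive cells and 40.0% ± 1.19 of Tff1-negative cells had a member UMI.

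In kept cells thinned to 1000 UMIs, all members but Cdh17 had more UMIs per cell at 10 or more Tff1 UMIs than at none. This held in each tumour. Cdh17 had 0 UMIs in both of these bins in tumours 2 and 3. In tumour 1 it had 4 UMIs in 645 cells with no Tff1 UMI and 1 in 115 cells with 10 or more. Across the same bins the acinar gate genes went from 7.73, 4.83 and 9.97 to 0.15, 0.40 and 0.97 UMIs per cell of 1000, so the bins also differ in their mix of acinar and ductal cells. Neither these levels nor the part of that mix in them was tested. From cells with no Tff1 UMI to cells with 10 or more, Clca1 went from 0.019, 0.020 and 0.022 to 0.45, 0.30 and 0.90 UMIs per cell of 1000 in tumours 1, 2 and 3. Lypd8 went from 0.059, 0.12 and 0.11 to 0.81, 1.83 and 1.45. Tspan8 went from 0.27, 0.30 and 0.25 to only 0.61, 0.57 and 0.76. At 0, at 1, at 2 to 4 and at 10 or more Tff1 UMIs, the 8 members summed to 0.77, 1.11, 1.31 and 3.27 UMIs in tumour 1, to 0.87, 1.53, 1.39 and 4.70 in tumour 2, and to 0.78, 0.80, 0.95 and 4.96 in tumour 3. Inside the ductal gate Spearman's rho with Tff1 was 0.27, 0.20 and 0.34 for Clca1 and 0.25, 0.36 and 0.28 for Lypd8, over 503, 109 and 298 cells of 1 library each. It was -0.00, -0.08 and -0.09 for Tspan8.

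**Figure D4:**
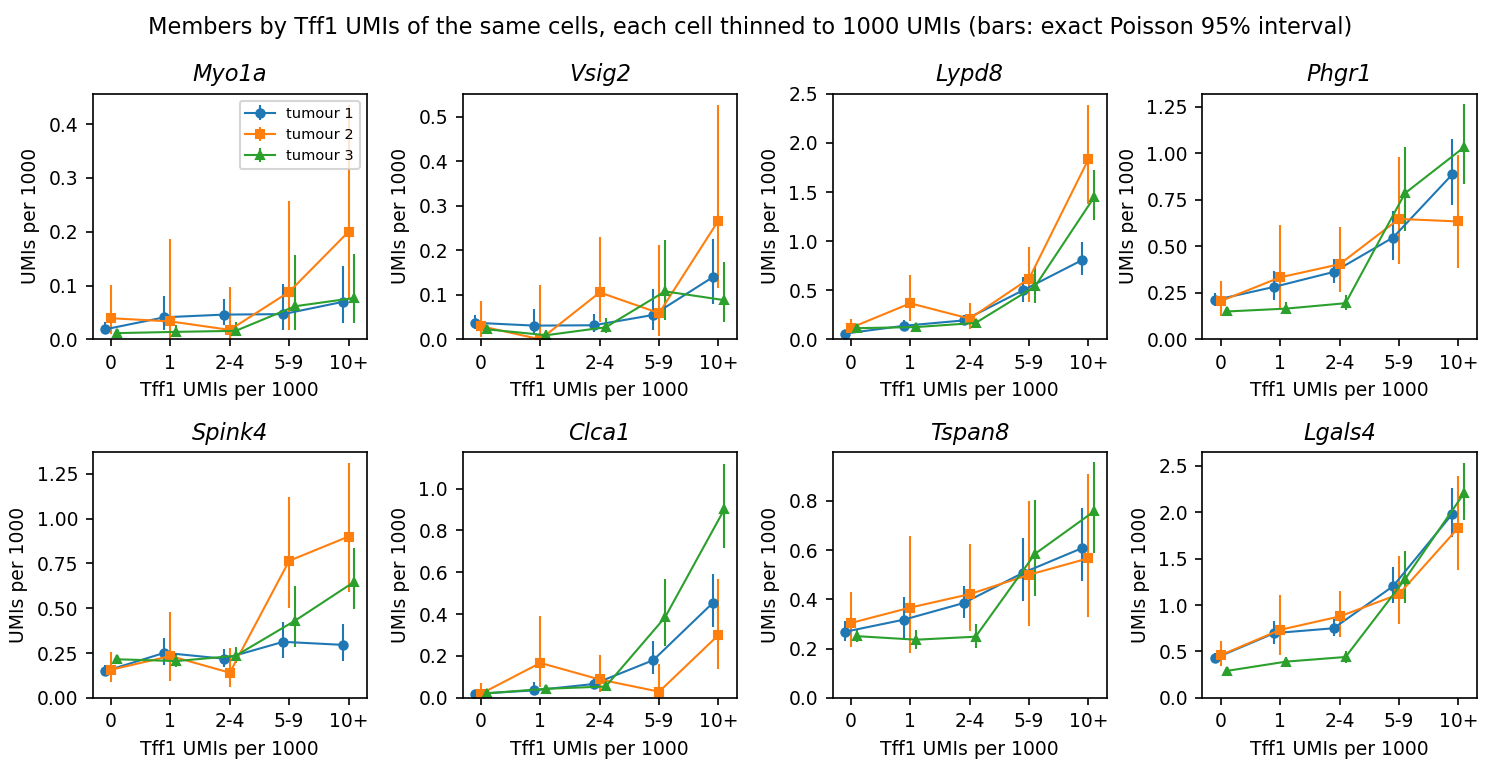
Mean UMIs per cell of 7 members and Lgals4, each cell thinned to 1000 UMIs, in bins of the Tff1 UMIs of the same cell (linear axes, exact Poisson 95% intervals, 1 line per tumour). Clca1 and Lypd8 start near 0 and climb at 5 or more Tff1 UMIs, apart from Clca1 in tumour 2 at 5 to 9, while Tspan8 starts at 0.25 to 0.30 and ends at 0.57 to 0.76.

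Genes of the same programmes were read from lists that were also drawn up with earlier results known. Of 14 brush border genes, 10 were tested and all 10 were higher in the ductal than the acinar gate (median log2 difference 1.77, against 0.01 over all genes and with 18.0% of all genes called higher). Rare genes could pass the low-count filter through the ductal gate alone, as with Baiap2l2 (mean 19.6 CPM against 2.91 in the acinar gate) and Eps8l3 (42.9 against 5.85), which favours this direction, so the counts and medians of the lists and of the members are descriptions only. The capping-protein relative Eps8l3 rose by 2.96 and the actin bundler Pls1 by 2.23, with Baiap2l2 at 2.20 and Eps8 at 2.19. Of 15 intestinal transcription factors, 5 were tested and 4 were higher, among them Klf5 (1.60), Creb3l1 (1.55) and Hnf4a (1.38). Gata4 did not pass (-0.43). Cdx1, Cdx2 and Atoh1 were too rare to test.

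The enterocyte and goblet lists were mixed. Among enterocyte genes 3 of 5 tested were higher, with the keratin Krt20 at 3.31, the chloride exchanger Slc26a3 at 2.20 and Lgals2 at 2.00, and the peptidase Anpep was lower at -2.89. Among goblet genes 4 of 5 were higher, led by the membrane mucin Muc13 (3.22), the mucus protein Fcgbp (3.16) and the disulfide isomerase Agr2 (2.92). The lectin Zg16, also known from acinar zymogen granules, was lower (-4.40) in 2 of 3 tumours, and tumour 2 had 2 ductal and 1 acinar UMIs of it. The gastric list stood as high as the gut lists: all 11 of 15 genes tested were higher, with the gastrokines Gkn1 and Gkn2 at 3.46 each, the protease Ctse at 3.07 and Vsig1 at 3.03.

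Against the Msln gate, where 2.82% of all genes were called higher, fewer brush border, transcription factor, enterocyte and goblet genes were called, and 9 of 11 gastric genes were higher (median log2 difference 2.57). One of 10 brush border genes was higher (Vil1, log2 difference 2.33), 1 of 5 transcription factors (Creb3l1, 3.15), 1 of 5 enterocyte genes (Lgals2, 4.41) and 2 of 5 goblet genes (Agr2, 4.05, and Muc13, 3.69). In the split of Lgals4 cells by Tff1, none of 7 brush border genes and none of 4 transcription factors passed at adjusted p under 0.05 (edgeR). Krt20 (1.42) and Agr2 (1.44) were the enterocyte and goblet genes that did. Among 11 gastric genes 6 were higher and 1 was lower: Gkn1 had 302 UMIs in tumours 1 and 3 with Tff1 and 1 without, a ratio of 84.7 (exact 95% interval 15.1 to 3356), and Gkn2 had 359 and 3, a ratio of 33.6 (11.4 to 164).

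The 8 genes whose log2(CPM + 10) was most like the mean of the members, over 11 sums of 4 cell groups by tumour and among 5797 genes, were Lgals4 (Pearson r = 0.98), Mgst2 (0.98), Smpdl3a (0.97), Rab25 (0.96), Agr2 (0.96), Muc13 (0.95), Prss32 (0.95) and Prom1 (0.95). Lgals4 helped to define the ductal gate, and the sums share libraries, so these values are descriptions. Tff1 came at rank 30 (0.91). Among the members, Lypd8 (0.93) and Vsig2 (0.92) followed the mean of the others most closely, and Tspan8 (0.64) and the sparse Cdh17 (0.22) least.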

How the data were processed

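Single-cell 3' RNA libraries of 3 tumours were read from deposited raw counts of UMIs (31053 genes, 6794880 possible barcodes), made by the authors with Cell Ranger 3.0.2 per the file headers. The submitters' processing notes name Cell Ranger 3, Seurat 3.1 and mm10. Both Version 1 and Version 3 kits appear in the labels' protocols. Gene annotation, intron counting and strand setting are not given in the sources used here, and genes were placed with GENCODE annotation of mm10.

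Cells had 1000 or more UMIs, 500 or more genes, at most 20% mitochondrial UMIs and 60% or more of the barcode's UMIs over the 3 libraries in their own. Scrublet (scanpy 1.11.5) marked 4, 3 and 0 cells, too few to have worked, and none was removed. Leaving out the 5% with the highest scores was an alternative. Levels are summed UMIs per 1000000 (CPM). Poisson and Clopper-Pearson 95% intervals and the floor of 3 counts cover counting error only. For equal depth, cells were thinned to 1000 UMIs.

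Tests used UMIs summed per group and tumour (20 or more cells) in edgeR 4.0.16 (R 4.3.3) with filterByExpr, TMM, glmQLFTest, Benjamini-Hochberg adjustment at 0.05 and the tumour as a block, since the groups of 1 tumour come from the same animal. The 3 gates were fitted together, in 8 sums with 3 residual degrees of freedom, and the Tff1 split had 5 sums with 1. Gate genes were left out of counts. On simulated data with 200 genes changed by 2 on the log2 scale, 99.5%, 79.5% and 98.5% were recovered for the acinar, Msln and Tff1 comparisons. The changed genes were drawn from those with 200 or more UMIs over all sums. The simulation used 1 dispersion for all genes and no tumour effect, so these rates do not describe sparse genes. Alternatives were DESeq2 1.42.0, RLE factors, no count filter, no block, each tumour left out, every barcode, 1500 UMIs, other gates and, chosen after seeing the data, sums of thinned cells.

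Members, lists, gates and tests were chosen with earlier results of these data known. The text names all members, up to 4 genes per related list by the absolute ductal-acinar log2 difference, and the 8 genes most like the members. Vil1, Muc2, Sis, Gkn1 and Gkn2 in other comparisons, and the list genes called there, were named after their values were seen. One gene of the transcription factor list is not reported here.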

Additional observations from a re-analysis of the deposited data

Results flagged for a closer look

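The barcodes removed because their UMIs were spread over several libraries lie outside all comparisons, and the 8 members were present in them. Their summed level was 966 CPM in 122 barcodes of tumour 1, 1025 CPM in 258 of tumour 2 and 1059 CPM in 28 of tumour 3, above the 12.4, 5.03 and 48.1 CPM that a count of 0 allows. These values were flagged because they are a signal in unused data. They lie between the acinar-gate and ductal-gate levels of the kept cells, and 17, 55 and 5 of these barcodes met the ductal gate.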

How the results depend on the processing

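Against the acinar gate the 7 tested members stayed higher and past the threshold in all alternatives run, with log2 differences from 1.84 (Spink4) to 4.19 (Clca1). The calls over all genes moved more: against the acinar gate 726 higher and 572 lower with DESeq2, 896 and 687 with no replicate block, 655 and 770 with sums of thinned cells, and 476 to 1487 higher and 318 to 1447 lower with 1 tumour left out. Against the Msln gate there were 72 and 234 with DESeq2, 82 and 74 with thinned sums, 110 higher with no replicate block, 343 higher with every barcode, and 42 to 308 higher and 103 to 393 lower with 1 tumour left out. In the Tff1 split there were 4 and 7 with DESeq2, 3 and 0 with no replicate block (83 lower at an unadjusted p under 0.05), 20 and 23 with every barcode, 10 and 9 without the highest scrublet scores, 9 and 13 with thinned cells, 27 lower with 3 or more Lgals4 UMIs, and 27 higher and 29 lower without tumour 2. Without tumours 1 or 3 that split had no residual degrees of freedom and could not be fitted, and DESeq2 gave no adjusted p for Clca1. With thinned cells, Tspan8 in the Tff1 split reversed, to a log2 difference of -0.075 (adjusted p = 0.994). With thinned sums Myo1a (adjusted p = 0.167) and Vsig2 (0.207) also lost their calls against the Msln gate. The Msln gate summed to 1441 CPM with a gate of 0.2% of UMIs, from 1 tumour. The share of Tff1-negative cells with a member was 38.2% with every barcode, 36.3% at 1500 UMIs, 48.6% with no thinning and 45.1% at 2 or more Tff1 UMIs, where 48.2% of member-positive cells had Tff1. Fewer genes were tested with thinned sums (3843) and without tumour 1 (5095) or 3 (4061) than the 7778 of the gates; other causes were not tested. Tumour 2, with 253 cells, and the 62 Msln-gate cells of tumours 1 and 3 limit what can be detected, most for Cdh17, Myo1a and Vsig2.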

Other observations

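Ductal-gate cells with a UMI of the proliferation genes Mki67 or Top2a, a split chosen after seeing the data, held less of some members. Phgr1 stood at 337, 346 and 378 CPM in the 150, 34 and 71 cells with such a UMI and at 590, 574 and 714 CPM in the others. Spink4 stood at 183, 404 and 322 CPM against 396, 600 and 622 CPM, and Lypd8 at 247, 462 and 674 CPM against 410, 861 and 846 CPM. All 3 were lower in each tumour. Tspan8 (853, 505 and 1120 CPM against 631, 626 and 993) and Clca1 (128, 260 and 420 CPM against 154, 113 and 334) showed no common direction. The gate genes were lower in these cells too, with Tff1 at 3864, 5125 and 3571 CPM against 6474, 6199 and 5854 CPM and Lgals4 at 862, 1025 and 1070.4 CPM against 1517, 1217 and 1697 CPM. Cells with such a UMI were deeper, with medians of 2263.5, 1361.5 and 3112 UMIs against 1596, 1288 and 2044, and the differences were not tested.

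In Lgals4 cells split by Tff1, some other genes that differed are named here after their values were seen. Lcn2, an iron-siderophore binder, fell by 2.36 on the log2 scale (mean 305 CPM in cells with Tff1 over 3 tumours and 1793 CPM in cells without over tumours 1 and 3) and Wfdc18 fell by 2.00, both in 2 of 2 tumours. The basal keratin Krt5 fell by 4.25, with 1 UMI without Tff1 in tumour 1 and 72 in tumour 3. The duct factor Sox9 fell by 0.96, mainly through tumour 3. Its level was 52.6, 96.5 and 68.4 CPM with Tff1 and 55.5, 70.1 and 169 CPM without. The pioneer factor Foxa1 rose by 2.04 (edgeR quasi-likelihood test, adjusted p = 3.81e-05).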
